A study of Mus musculus with 6 samples.

Results

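The SHIP phosphatases and the core of the PI3K pathway were followed through 9 mouse genes, Inpp5d, Inppl1, Inpp4b, Pik3ca, Pik3cb, Pik3cd, Pik3r1, Akt1 and Akt2, of 36163 gene names on the array. A member was any non-control probe whose gene name in the scanner output equals one of these symbols, which gave 14 probes among 55681. The reason for looking at them lies in the reporter of the study. In FVB/N Tg 11.5kb-GFP mice, a transgenic fragment of the promoter of s-SHIP, a short product of Inpp5d, drives enhanced GFP, so that the LSC GFP+ and LSC GFP- populations differ in the activity of a promoter of the first member of the list. Both populations were sorted from prostates of untreated 6-day-old males that carried the transgene. Both were negative for the lineage markers Ter119, CD31 and CD45 and positive for Sca-1 and CD49f, a gate called LSC that holds basal and stem cells, and they were separated by GFP alone. GFP fluorescence was the sorting criterion, the transgene is a promoter fragment outside its own locus, and the number of prostates behind a sample is not given in the sources used here. There were 3 samples of each population, 1 array per sample, and nothing in the labels ties them to separate animals, so the p values measure the spread between these samples.

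Class I PI3K is recruited to activated receptors through a regulatory subunit, and its catalytic subunit phosphorylates a membrane lipid to make PIP3. PIP3 brings Akt kinases to the membrane, where they are activated and promote survival, growth and glucose uptake. Several phosphatases act on these lipids. The SHIP enzymes remove a phosphate from PIP3, and INPP4B acts on the lipid that SHIP leaves behind. INPP4B has been described as a tumour suppressor in the prostate. SHIP1, the product of Inpp5d, is best known from blood cells, whereas SHIP2, the product of Inppl1, is made in many tissues. s-SHIP is transcribed from a promoter inside Inpp5d, lacks the SH2 domain of SHIP1 and has been described in embryonic and blood stem cells.

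What the array can see of the SHIP genes was set by single probes. The sequences of the SHIP probes and of an overlapping pair of Akt2 probes are shown because the readings below rest on them. Each is the first 30 of the 60 bases that the scanner output gives for the probe, 5′ to 3′, in lower case. In the Akt2 pair, capitals mark the bases shown that lie in the stretch of 53 bases the 2 probes share.
Inpp5d: cttgtcttgctttttgatatatcaggatta
Inppl1: ggtggtcggcttgttgtcttcaataaatta
Akt2 probe 1: ctgctggCCTTTCCTTACTCCTCGTATTTG
Akt2 probe 2: CCTTTCCTTACTCCTCGTATTTGTACGGTA

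In mm9, the build of the array design, the Inpp5d probe A_51_P337125 lies at chr1:89616958-89617017 on the plus strand. The design assigns it to 3 RefSeq transcripts of the gene, so it was not made to tell them apart, and no result here separates s-SHIP from full-length SHIP1. The Inppl1 probe A_55_P2178044 lies at chr7:108971194-108971253 on the minus strand. The overlapping Akt2 probes A_55_P2066518 and A_55_P2025228 lie at chr7:28424405-28424464 and chr7:28424412-28424471 on the plus strand, 7 bases apart, and count as nearly the same measurement. An annotation of exons and untranslated regions in that build was not used here.

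Signals are given as log2 of the processed signal minus the 75th percentile of the array, so that a value of 0 is the level of that percentile. Levels were compared between arrays and never between probes, whose brightness also depends on their sequence. Feature Extraction marks each spot as well above background or not, and a probe entered the test if 1 of the populations had this mark on each of its 3 arrays. The test was limma's, and differences are LSC GFP+ minus LSC GFP- on the log2 scale. Of the 14 probes, 11 were tested, and each of these was well above background on all 6 arrays. They cover 8 of the 9 genes. None of the 11 passed an unadjusted p of 0.05 in limma or the Benjamini-Hochberg adjustment, against 7.9% of the 37005 probes tested on the array that passed the unadjusted threshold. That fit did not pair the samples. With the replicate number as a block in limma, 1 of the 11 (Inppl1) passed the unadjusted threshold, against 14.8% of all tested probes. In 4 of the 11 the 3 arrays of one population all lay above the 3 of the other, which held for 12.3% of all tested probes. Pik3ca, Pik3r1 and Akt1 were the 3 higher in LSC GFP+ cells, beside 6.61% of all tested probes without overlap in that direction. Inppl1 was the 1 lower, beside 5.66% of all. The lowest adjusted p of a member was 0.71. An exact permutation test cannot help here, since 3 against 3 arrays gives no two-sided p under 0.1.

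**Figure D1:**
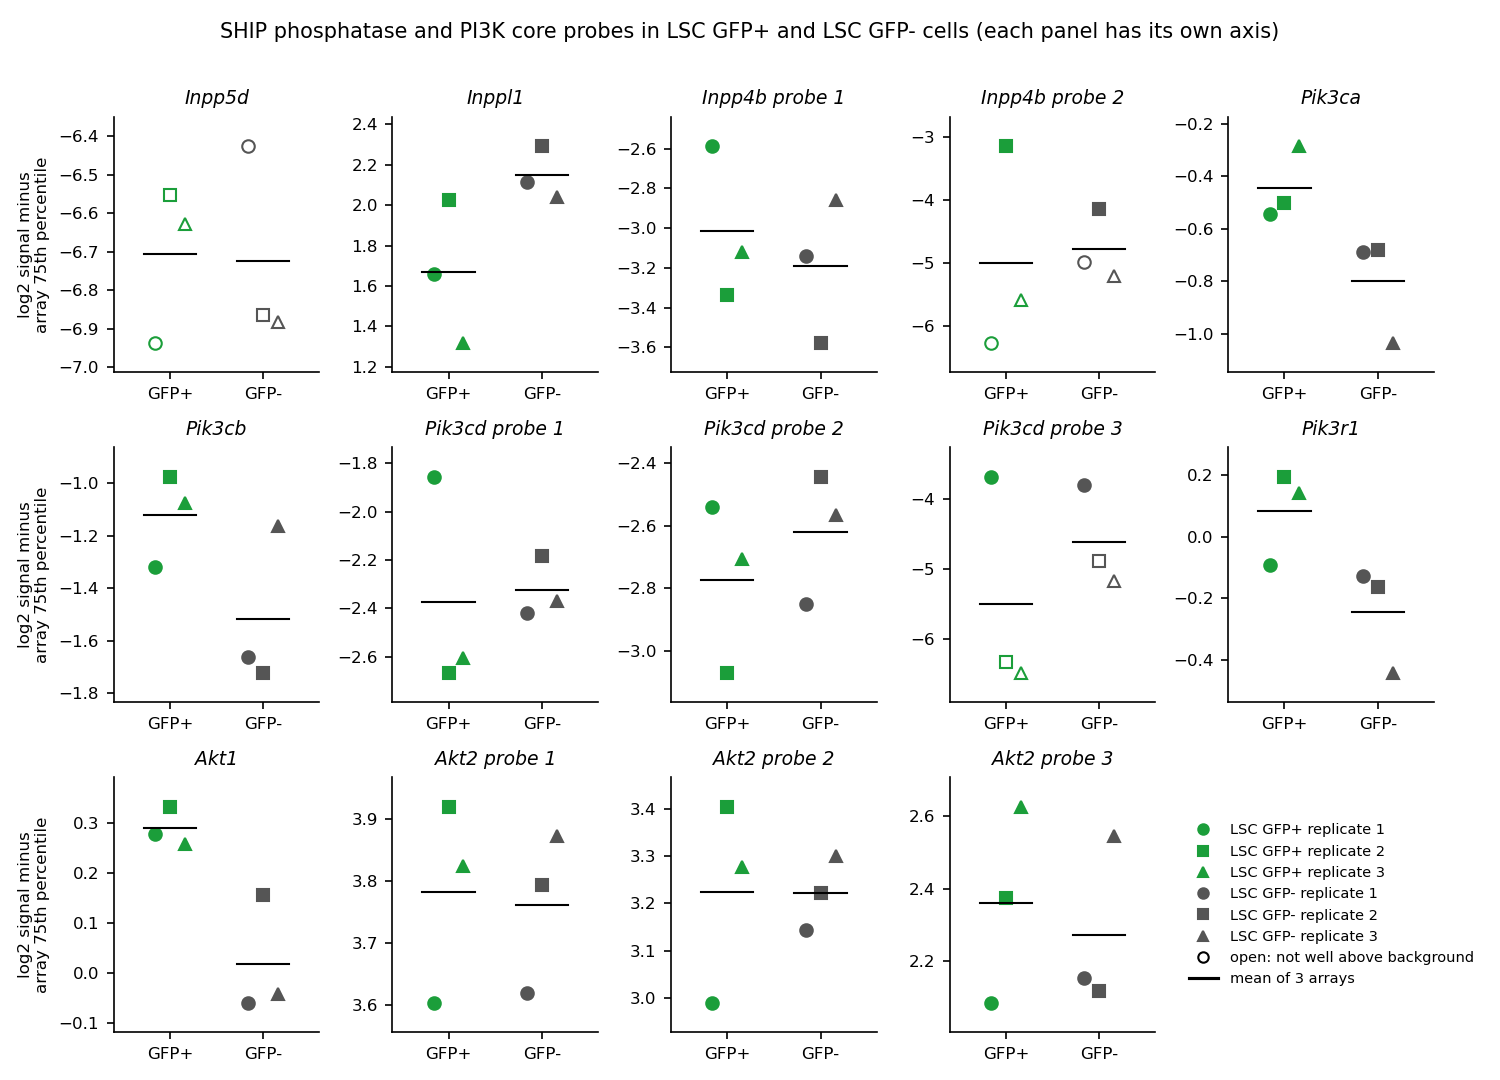
Log2 signal minus the array's 75th percentile for the 14 member probes, one panel with its own axis per probe, with the 3 arrays of LSC GFP+ cells in green and the 3 of LSC GFP- cells in grey (symbols mark the replicate, open symbols a probe not well above background, lines the mean of 3 arrays). The populations do not overlap for Inppl1, Pik3ca, Pik3r1 and Akt1, and all 6 symbols of Inpp5d are open.

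Inpp5d itself gave no measurable transcript signal in either population. Its only probe lacked the mark for well above background on all 6 arrays, and on all 6 the software had put a substitute value in place of the signal. The signal, in the linear units of the scanner software, read 3.26, 5.28 and 4.17 in LSC GFP+ replicates 1, 2 and 3. It read 4.65, 3.50 and 3.56 in LSC GFP- replicates 1, 2 and 3. The median of the negative control spots lay between 3.73 and 5.98 on the 6 arrays, and the lowest signal marked well above background between 15.8 and 25.6. On every array the Inpp5d probe thus stood below the negative control median, and the 2 populations overlapped. No fold is given, because both sides are background. Of the 55681 probes, 17.9% were likewise not well above background on any array. A transcript level below what this probe detects could not be measured, and the probe does not read the promoter fragment of the transgene.

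**Figure D2:**
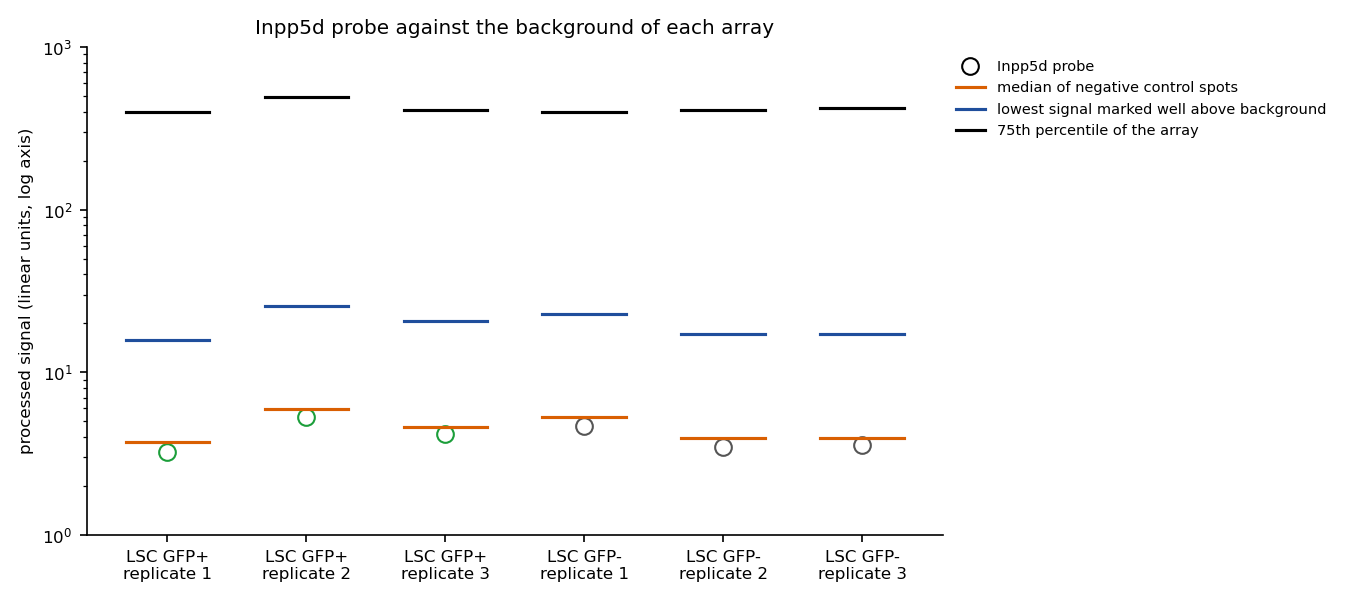
Processed signal of the Inpp5d probe on each array (circles, linear units on a log axis), with the median of 308 negative control spots (orange), the lowest signal marked well above background (blue) and the 75th percentile of the array (black). The circle lies under the orange line on all 6 arrays, in LSC GFP+ and LSC GFP- cells alike.

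Inppl1, the gene of the other SHIP enzyme, was well above background throughout and read lower on the GFP+ arrays. Its log2 levels were 1.66, 2.03 and 1.32 in LSC GFP+ replicates 1, 2 and 3 and 2.12, 2.29 and 2.04 in LSC GFP- replicates 1, 2 and 3. All 3 GFP+ arrays lay below all 3 GFP- arrays, although the highest GFP+ array and the lowest GFP- array differed by little. The means were 1.67 ± 0.35 and 2.15 ± 0.13 (SD, n = 3). The difference was -0.48 (SE 0.23, 95% interval from -1.02 to 0.06), 1.40-fold higher in LSC GFP- cells. It did not pass the threshold in limma (unadjusted p = 0.073, adjusted p = 0.71), and it did with the replicate number as a block (unadjusted p = 0.025), with normexp background correction (0.038) and without LSC GFP+ replicate 2 (0.028). Without LSC GFP+ replicate 3 the difference was -0.31 (unadjusted p = 0.25), and over all alternatives the unadjusted p ran from 0.025 to 0.25. Within the 3 pairs of equal replicate number the differences were -0.46, -0.26 and -0.72, all in the same direction. With quantile normalization or median scaling the populations overlapped.

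Inpp4b, which encodes the phosphatase acting after SHIP, was read by 2 probes with weak signals. The brighter one, A_52_P330289 at chr8:84565823-84565882, gave -2.59, -3.34 and -3.12 in LSC GFP+ replicates 1, 2 and 3 and -3.14, -3.58 and -2.86 in LSC GFP- replicates 1, 2 and 3. The arrays overlapped, with the highest value in LSC GFP+ replicate 1 and the lowest in LSC GFP- replicate 2. The log2 difference was 0.18 (SE 0.28, 95% interval from -0.47 to 0.82, adjusted p = 0.996 in limma), and its sign turned to -0.04 without LSC GFP+ replicate 1 and to -0.02 without LSC GFP- replicate 2. The second probe, A_55_P2016792 at chr8:84646383-84646442, was well above background on 1 array of each population, replicate 2 in both, and was not tested.

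Among the catalytic subunits, Pik3ca, which encodes the widely made p110 alpha that insulin and growth factor receptors use, separated the populations. Its probe A_52_P265002 at chr3:32360630-32360689 gave -0.54, -0.50 and -0.29 in LSC GFP+ replicates 1, 2 and 3 and -0.69, -0.68 and -1.03 in LSC GFP- replicates 1, 2 and 3. Every GFP+ array was above every GFP- array, and LSC GFP- replicate 3 was the lowest of the 6. The log2 difference of 0.36 (SE 0.20, 95% interval from -0.11 to 0.82, 1.28-fold) did not pass the threshold in limma (unadjusted p = 0.11, adjusted p = 0.80).

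Pik3cb encodes p110 beta, the other widely made catalytic subunit. At A_51_P479914, chr9:98939114-98939173, the log2 levels were -1.32, -0.97 and -1.07 in LSC GFP+ replicates 1, 2 and 3 and -1.66, -1.72 and -1.16 in LSC GFP- replicates 1, 2 and 3. The populations overlapped through 1 pair of arrays, LSC GFP- replicate 3 being above LSC GFP+ replicate 1. The log2 difference was 0.39 (SE 0.23, 95% interval from -0.13 to 0.92, 1.31-fold, unadjusted p = 0.12, adjusted p = 0.82 in limma). Without LSC GFP- replicate 3 it was 0.57 with an unadjusted p of 0.041, and with normexp 0.23 with an unadjusted p of 0.19.

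Pik3cd encodes p110 delta, which is best known from leukocytes, and 3 probes read it at chromosome 4. At the first, A_55_P2028263 (chr4:149024749-149024808), the levels were -1.86, -2.67 and -2.61 in LSC GFP+ replicates 1, 2 and 3 and -2.42, -2.18 and -2.37 in LSC GFP- replicates 1, 2 and 3. LSC GFP+ replicate 1 was above all GFP- arrays and the other two GFP+ arrays were below them. The log2 difference was -0.05 (SE 0.26, adjusted p = 0.996 in limma), and it changed sign to 0.03 with quantile normalization and to 0.02 with median scaling. The second, A_55_P2028268 (chr4:149023926-149023985), differed by -0.15 (SE 0.22, adjusted p = 0.996 in limma), again with replicate 1 higher in LSC GFP+ cells, by 0.31, and replicates 2 and 3 lower, by -0.63 and -0.14. It was -0.03 with normexp, -0.07 with quantile normalization and -0.08 with median scaling, and ran from -0.270 to -0.00474 when each array was left out in turn, nearest to 0 without LSC GFP+ replicate 2. The third, A_52_P99848 (chr4:149023282-149023341), was well above background on replicate 1 of each population alone and was not tested.

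Pik3r1 encodes p85 alpha and its shorter forms, the regulatory subunit that stabilizes the catalytic subunit and docks it to receptors. Its probe A_51_P511236 at chr13:102454406-102454465 gave -0.09, 0.19 and 0.14 in LSC GFP+ replicates 1, 2 and 3 and -0.13, -0.16 and -0.44 in LSC GFP- replicates 1, 2 and 3. The populations did not overlap, but replicate 1 of the 2 populations differed by only 0.04, and with median scaling they overlapped. The log2 difference was 0.32 (SE 0.20, 95% interval from -0.13 to 0.78, 1.25-fold, unadjusted p = 0.14, adjusted p = 0.84 in limma).

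Akt1, the widely made Akt kinase tied to growth and survival, was read by A_55_P2066384 at chr12:113892079-113892138. Its log2 levels were 0.28, 0.33 and 0.26 in LSC GFP+ replicates 1, 2 and 3, the tightest group among the tested member probes, and -0.06, 0.16 and -0.04 in LSC GFP- replicates 1, 2 and 3. The populations did not overlap under any scaling tried. The log2 difference of 0.27 (SE 0.18, 95% interval from -0.15 to 0.69, 1.21-fold) did not pass the threshold in limma (unadjusted p = 0.17, adjusted p = 0.88), while the methods' t-test, which uses the spread of this probe alone, gave an unadjusted p of 0.020.

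Akt2, the Akt kinase that insulin-stimulated glucose uptake depends on, was read by 3 probes, and none separated the populations. At Akt2 probe 1 the levels ran from 3.60 to 3.92 in LSC GFP+ cells and from 3.62 to 3.87 in LSC GFP- cells. The log2 differences were 0.02 (SE 0.19) at probe 1, 0.00 (SE 0.20) at the overlapping probe 2, and 0.09 (SE 0.23) at A_55_P2066523, chr7:28418226-28418285, with adjusted p between 0.996 and 0.999 in limma. With quantile normalization the first and second of these were negative, at -0.03 and -0.05. The 95% intervals reached from -0.43 to 0.47, from -0.46 to 0.46 and from -0.44 to 0.62, so a difference of this size in either direction is within the error.

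**Figure D3:**
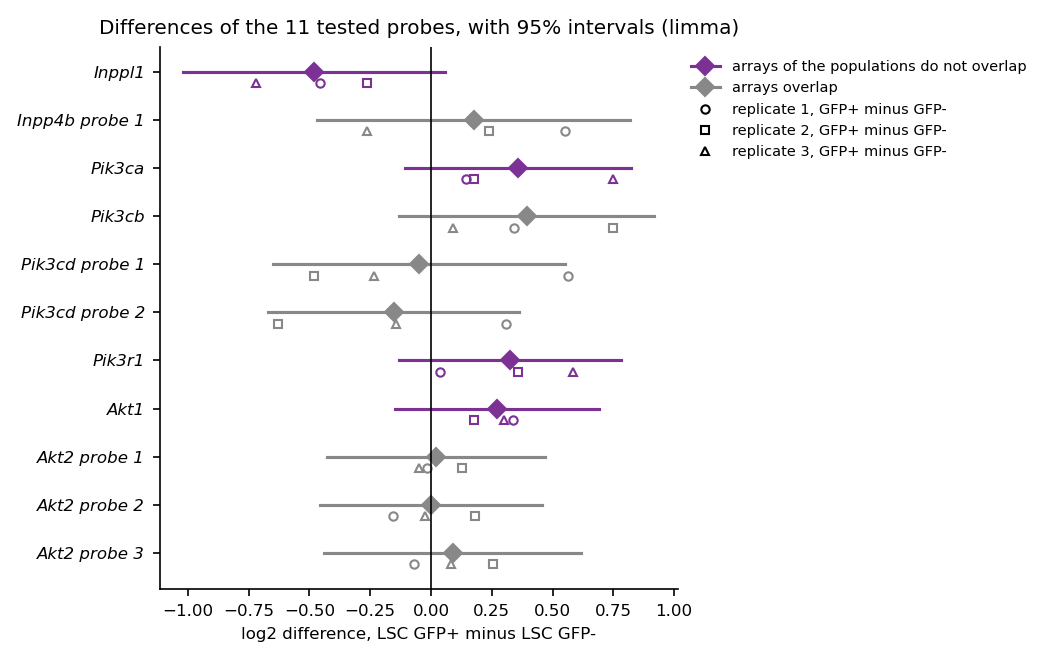
Log2 differences, LSC GFP+ minus LSC GFP-, of the 11 tested member probes (diamonds) with 95% intervals from limma, and the difference within each replicate number (small open symbols). Every interval includes 0. Violet marks the 4 probes whose arrays do not overlap, 1 lower (Inppl1) and 3 higher (Pik3ca, Pik3r1 and Akt1) in LSC GFP+ cells.

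As a group, 8 of the 11 tested probes had a positive difference and 3 a negative one, and the median was 0.09. The positive ones include all 3 Akt2 probes, at 0.02, 0.00 and 0.09, the first and second being nearly the same measurement. The probes of a gene are thus not separate counts. Over all 37005 tested probes 49.4% were positive and the median was -0.0044. The members' differences ran from -0.48 at Inppl1 to 0.39 at Pik3cb, and their standard errors from 0.18 to 0.28. The samples were not alike in this respect. LSC GFP- replicate 3 was the lowest array at Pik3ca and Pik3r1 but the highest GFP- array at Pik3cb, the brighter Inpp4b probe and all 3 Akt2 probes, and LSC GFP+ replicate 1 was the lowest GFP+ array at Pik3ca, Pik3cb, Pik3r1 and all 3 Akt2 probes.

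The rest of the pathway was covered by 8 lists with 80 genes, each read at its brightest probe. Of these, 74 were tested, 7 were higher and 3 lower among the GFP+ arrays when the unadjusted limit of 0.05 was applied, and 64 did not pass. Of 25530 genes tested at their brightest probe, 3.39% were higher and 4.28% lower at that threshold, 7.67% in all. The median log2 difference was 0.06 over the listed genes and -0.01 over all genes. None of the listed genes passed the adjustment, the lowest adjusted p in limma being 0.13, and values below are given as differences at the unadjusted threshold.

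Of the 13 listed phosphoinositide phosphatases 11 did not pass, and the median of that list was -0.04. Inpp5j, which encodes a 5-phosphatase of the same enzyme family as the SHIPs, was lower in LSC GFP+ cells. Its log2 levels were -4.02, -4.08 and -3.93 in LSC GFP+ replicates 1, 2 and 3 against -2.78, -3.06 and -2.31 in LSC GFP- replicates 1, 2 and 3, a wide gap without overlap. The difference was -1.29 (SE 0.24, adjusted p = 0.13 in limma), 2.45-fold higher in LSC GFP- cells, and -0.61 with normexp, so its size depends on how the background is treated. In linear units the signals of LSC GFP+ replicates 1, 2 and 3 were 24.5, 29.3 and 27.1. The lowest signals marked well above background on these arrays were 15.8, 25.6 and 20.6, so the GFP+ side lies near the floor.

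Among the other PI3K subunits, Pik3r2 differed most. It encodes p85 beta, the second widely made regulatory subunit, and its levels were -0.83, -0.93 and -0.99 in LSC GFP+ replicates 1, 2 and 3 against -1.65, -1.69 and -1.62 in LSC GFP- replicates 1, 2 and 3. The gap was many times the spread within either group. The difference was 0.73 (SE 0.18, unadjusted p = 0.0034, adjusted p = 0.23 in limma), 1.66-fold, and 0.46 with normexp. Of the other class I genes, Pik3r5 was well above background on 0 arrays and Pik3cg on 1, and neither was tested. Of the 7 genes of class II and III PI3K and their partners, Uvrag, whose product joins the class III complex in endosome and autophagosome maturation, was higher (0.70, SE 0.23, adjusted p = 0.41 in limma; 0.53 and not past the unadjusted threshold without LSC GFP- replicate 2; 0.46 with normexp) and 6 did not pass. None of the 11 tested receptor adaptors and PI3K modulators passed, and their median was 0.06.

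Of the 9 tested genes that activate Akt, remove its phosphate or belong to its family, 8 did not pass, and the median of that list was 0.05. None of the 11 tested genes of the mTORC1 branch, which controls protein synthesis downstream of Akt, passed. The median of the mTORC1 list was 0.20.

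Of the 9 tested Akt substrates, Foxo1 and Tbc1d4 were higher. Foxo1 encodes a transcription factor that Akt keeps out of the nucleus, and its levels were 0.97, 1.17 and 0.90 in LSC GFP+ replicates 1, 2 and 3 against 0.49, 0.50 and 0.32 in LSC GFP- replicates 1, 2 and 3, without overlap. The difference was 0.58 (SE 0.19, adjusted p = 0.41 in limma), and a second probe differed by 0.22 with overlap. Tbc1d4 encodes the regulator of glucose transporter traffic that Akt inhibits, and it differed by 0.65 (SE 0.22) at its brighter and 0.82 (SE 0.27) at its dimmer probe (adjusted p = 0.45 and 0.42 in limma), without overlap at either. Both calls, made at the brighter probe, were lost without LSC GFP+ replicate 2 (0.50 for Foxo1 and 0.475 for Tbc1d4) or without LSC GFP- replicate 3 (0.52 and 0.60). The mean over both probes was 0.40 for Foxo1 (unadjusted p = 0.064 in limma) and 0.73 for Tbc1d4 (unadjusted p = 0.0076 in limma).

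The 11 FOXO target genes, all tested, had a median difference of 0.16. Fbxo32, which encodes the ubiquitin ligase atrogin-1, was higher by 0.59 (SE 0.18), and Gadd45a, a stress and DNA damage response gene, by 0.63 (SE 0.19), with adjusted p of 0.38 and 0.35 in limma. Bcl2l11, which encodes the cell death protein BIM, was lower, at -0.88 (SE 0.31, adjusted p = 0.47 in limma). Its levels were -2.56, -2.32 and -2.58 in LSC GFP+ cells and -0.91, -2.04 and -1.86 in LSC GFP- cells, replicate 1 of the latter standing above the rest, and without it the difference was -0.54 (unadjusted p = 0.066). The call was also lost without LSC GFP+ replicate 1 (-0.85), LSC GFP+ replicate 3 (-0.84) and in the methods' t-test (unadjusted p = 0.070), and with normexp it was -0.56. The call was lost for Fbxo32 without LSC GFP- replicate 1 (0.56) and for Gadd45a without LSC GFP- replicate 2 (0.53). The targets that differed thus did so in both directions.

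**Figure D4:**
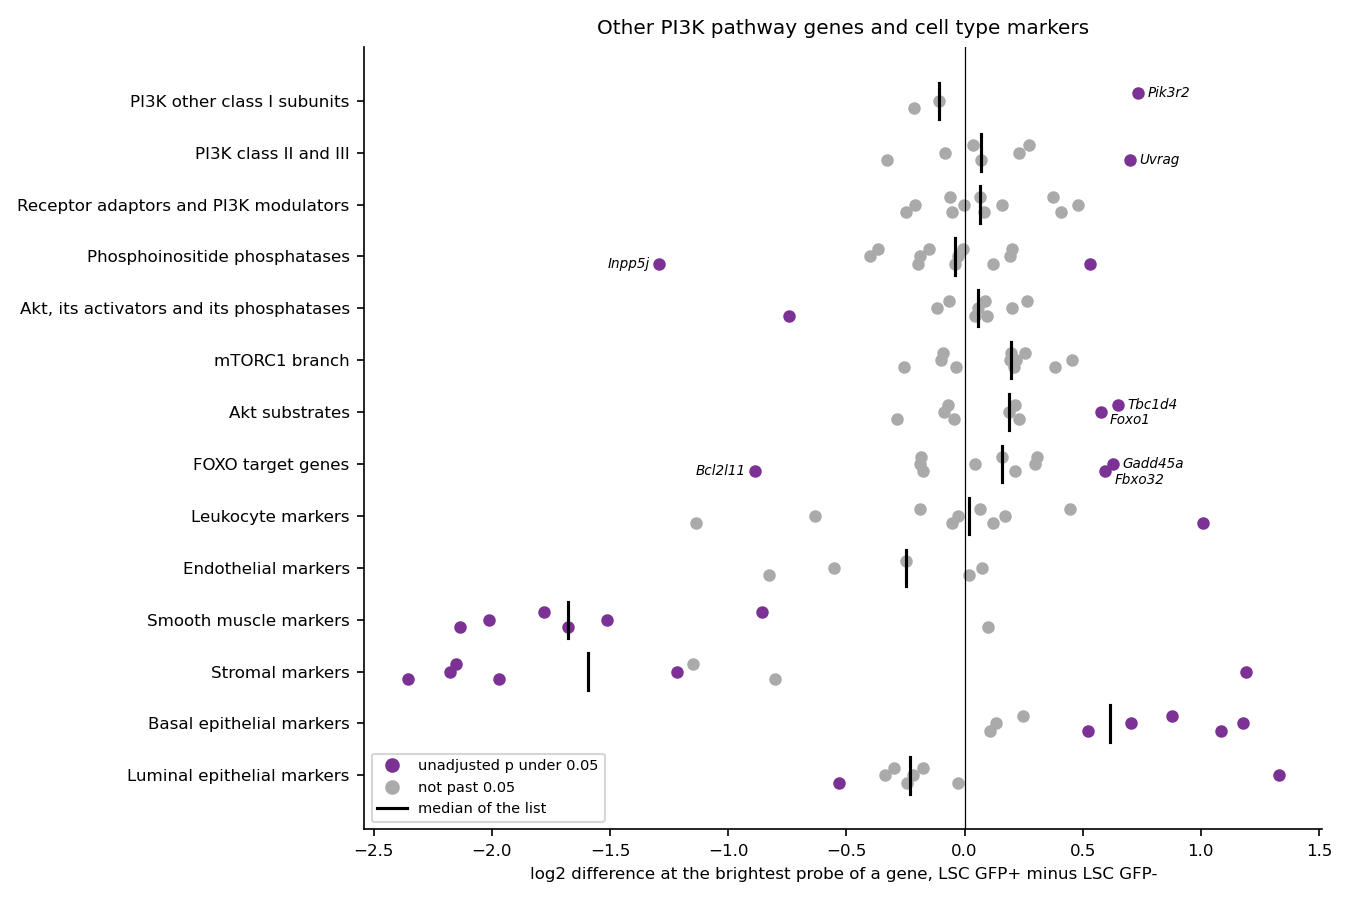
Log2 difference at the brightest probe of each tested gene, LSC GFP+ minus LSC GFP-, for the 8 pathway lists and 6 lists of cell type markers (violet: unadjusted p under 0.05 in limma; black bars: list medians). The pathway medians lie between -0.11 and 0.20, while those of the smooth muscle and stromal markers are -1.68 and -1.59 and that of the basal markers is 0.61.

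Markers of some cell types differed between the populations by more than the members did. Summed levels are set between arrays alone, and the brightest probes weigh most in them. At the unadjusted threshold, 6 of 7 tested smooth muscle markers were lower in LSC GFP+ cells, Acta2 by -2.13, and their summed level, in units of the array's 75th percentile, was 7.04 to 10.6 against 20.0 to 38.5. Of 8 stromal markers 5 were lower (Col1a1, Col1a2, Col3a1, Pdgfra and Lum, named after their values were seen) and Dcn was higher, with summed levels of 18.7 to 25.0 against 20.9 to 59.4. Of 8 basal markers 5 were higher (with Krt15, Lamb3 and Col17a1 named after their values were seen), Krt14 by 1.18 and Krt5 by 0.70, with summed levels of 229 to 247 against 172 to 182. Of 8 luminal markers 1 was higher, 1 was lower (Prom1, named after its value was seen) and 6 did not pass, and Krt8 differed by -0.30 (unadjusted p = 0.31), with summed levels of 199 to 278 against 212 to 294. None of these markers passed the adjustment in limma. Krt5 did not pass without replicate 2 (0.64) or 3 (0.58) of the GFP+ arrays or replicate 1 (0.71) or 2 (0.58) of the GFP- arrays. The keratin genes that mark basal and luminal cells were well above background on all 6 arrays, as were Ly6a for Sca-1 and Itga6 for CD49f, which differed by -0.36 and 0.25 (unadjusted p = 0.46 and 0.29).

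Leukocytes were gated out by CD45, and Inpp5d and Pik3cd are both known from them. Of 14 leukocyte markers, Cd53, Laptm5 and Lyz2 were not well above background on any array and 9 were on all 6, among them Ptprc, the CD45 gene, at -0.05 (unadjusted p = 0.77). Of the 10 tested, Vav1 was higher (named after its value was seen), 9 did not pass, the median was 0.02, and the summed level was 243 to 320 against 264 to 302. Between 85.3% and 89.8% of that sum came from the Itgam probe, and the other 13 genes summed to 30.4 to 34.1 against 32.2 to 38.7. Of 8 endothelial markers 5 were tested and none passed, Pecam1 for CD31 differed by -0.55 (unadjusted p = 0.38), the median was -0.25, and the summed level, 75.5% to 90.3% of it from Kdr, was 6.11 to 6.97 against 6.20 to 7.58. The 5 genes of the sorting markers had a median of -0.18 and none passed, with summed levels of 59.9 to 79.7 against 62.7 to 86.9. In sorted bulk samples fewer cells of a type and less RNA per cell cannot be told apart, and the part of the marker differences in those of Inppl1, Inpp5j and the other pathway genes was not tested.

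The genes closest in pattern were sought for the phosphatase members with a usable probe, by Pearson's r over the 6 arrays against 23719 other gene names well above background throughout. For Inppl1 these were a transcript without a gene symbol (r = 0.993), Tle2 (r = 0.992) and another probe without a symbol (r = 0.991). Tle2, which encodes a Groucho family corepressor, had a log2 difference of -1.93. That it shares the direction of Inppl1 follows from its being picked by this correlation. For Inpp4b they were Mtvr2 (r = 0.990), a probe for a non-coding region (r = 0.989) and 1700125G22Rik (r = 0.985), with differences of 0.03, 0.13 and 0.09. With 6 arrays from the same slide and scan, so many candidates give high values, and these are a description. Inpp5d has no such neighbours, because its readings are background.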

How the data were processed

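LSC GFP+ and LSC GFP- cells were sorted (3 samples each), and their RNA was amplified (Ovation Pico WTA), labeled with Cy3 and hybridised to SurePrint G3 Mouse GE 8x60K arrays, all 6 on the same slide and scan. Per the file headers, the deposited signal is an intensity on the linear scale from Feature Extraction 11.0.1.1 (10.7.3.1 in the submitters' processing notes), background-subtracted, with a spatial trend removed and a substitute value for dim spots, without normalization between arrays. The authors' value table of the series is the same intensity, rounded, and served as an alternative. Amplification can shift the proportions of transcripts, and a substitute value carries no level.

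From these, log2 signals were taken and each array's 75th percentile subtracted. Outlier spots (123 to 154 per array) were left out and the spots of a probe averaged. Between 36656 and 42128 of 55681 probes per array were well above background, and no spot was saturated. In R 4.3.3, limma 3.58.1 (lmFit, then eBayes) gave two-sided p values for the tested probes, with Benjamini-Hochberg adjustment over all 37005. The fit was tested on simulated data. The number of arrays limits the precision. Of the 2925 probes past an unadjusted p of 0.05, 57.3% were lower in LSC GFP+ cells, and of the 2770 past it with median scaling 46.9%, while that scaling moved the median of all probes by under 0.1. After adjustment 1 probe passed.

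The members and the gene lists were chosen with earlier results of these data known. The text names all members at every probe, the genes of the pathway lists past an unadjusted p of 0.05 at their brightest probe, the marker lists by counts with 8 genes by value, and 3 genes nearest in pattern to Inppl1 and Inpp4b. Some genes of the lists, counted with them, are not reported here by name. Array symbols were used as the design gives them, with 1 older symbol matched through RefSeq synonyms.

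Same-numbered samples deviated together from their population means (r = 0.43, 0.28 and 0.67 for replicates 1, 2 and 3 over 36990 probes). Among pairs of unequal number r ran from -0.55 to 0.22, the highest for LSC GFP+ replicate 1 with LSC GFP- replicate 2. That is close to the 0.28 of replicate 2. The deviations within a population are tied through its mean, so these values are not independent. The numbers in the labels were taken to pair the samples in an alternative fit alone, and the main fit left the pairing out. The replicate block was run as an alternative, as were normexp with an offset of 50, quantile normalization, median scaling, the series value table, an intensity trend, looser and stricter filters for dim probes, averaging a gene's probes, the methods' t-test (Student's, equal variances), and each array left out in turn.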

Additional observations from a re-analysis of the deposited data

How the results depend on the processing

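The count of all probes past an unadjusted p of 0.05 was 2925, and 5480 with the replicate block. The members' count of 0 became 1 with normexp and with the replicate block (Inppl1 in both), 1 with the methods' t-test (Akt1), and ranged from 0 to 1 when each array was left out in turn (Inppl1 without LSC GFP+ replicate 2, Pik3cb without LSC GFP- replicate 3). Of all tested probes, 7.47% passed that threshold with normexp, 14.8% with the replicate block and 7.56% with the methods' t-test. With an array left out, 5.94% to 10.9% of them passed. The members' count without overlap was 4, 3 with quantile normalization, 2 with median scaling, and 4 to 6 when each array was left out, 6 without LSC GFP+ replicate 1. Leaving an array out sets 2 arrays against 3, where a lack of overlap is easier to reach than with 3 against 3. The share of all tested probes without overlap was 12.3% in the main fit and is not given for the alternatives, so these counts are a description. The count of other pathway genes was 10, between 7 and 14 under all alternatives, 7 when a gene's probes were averaged and 14 with the replicate block. The block changed the call of no other member. Among single members the sign turned in 16 of 167 comparisons, all at Inpp4b, Pik3cd or Akt2, whose differences lie within their error: at the first Pik3cd probe with quantile normalization (0.0317) and median scaling (0.0182), at Akt2 probes 1 and 2 with quantile normalization (-0.0329 and -0.0540), and otherwise when an array was left out. Over arrays left out, the difference ranged from -0.0374 to 0.343 at Inpp4b, from -0.311 to 0.0947 and -0.270 to -0.00474 at the first and second Pik3cd probes, and from -0.0504 to 0.110, -0.0891 to 0.119 and -0.0438 to 0.228 at Akt2 probes 1, 2 and 3. Of the markers, Ptprc turned to 0.0147 with median scaling, Pecam1 reached from -0.938 to 0.199 and Ly6a from -0.805 to 0.0992 over arrays left out. Of the 275 comparisons for the other named genes, 21 lost the unadjusted threshold. The cause was not tested. The slide or scan as a block was not run, because the files show a single slide and scan. Signal over background limits Inpp5d in full, the weaker probes of Inpp4b and Pik3cd, and Inpp5j in LSC GFP+ cells.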
